A study of Homo sapiens with 12 samples.

Results

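Short exonic circular RNAs (circRNAs) with a circBase record were followed in HCT116 and Lovo, both human lines from colorectal cancer, each as a derivative resistant to 5-fluorouracil (5-Fu) and as its drug-sensitive parent. The circRNAs were chosen by 4 entries of the deposited table: the class exonic, a circBase identifier, a best transcript with an NM_ accession, and a predicted sequence of at most 300 bases. This gave 1636 of the 17938 circRNAs in the table. Another 8045 circRNAs met the first 3 entries but had longer predicted sequences, 7338 of them with up to 1500 bases and 707 with more. None of the 4 entries is a read count.

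A circRNA forms when the spliceosome joins the downstream end of an exon to the upstream end of the same or an earlier exon, a reaction called back-splicing. The product is a closed RNA ring without free ends, which makes it resistant to exonucleases and often longer-lived than the linear transcript of the same gene. A ring of this size usually holds a single exon or a few small ones. Only a read across the back-splice junction tells a ring from the linear transcript, and such junction reads are what the table counts.

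The 4 groups, each of 3 libraries, were resistant HCT116, sensitive HCT116, resistant Lovo and sensitive Lovo. Resistant cells had been selected by raising 5-Fu in steps that began at 0.1 and ended at 2 μg/ml, a dose they could withstand for 3 days or more. The sensitive groups were the parental lines, and HCT116 and Lovo were kept in different media. The labels name neither clones, nor separate selections, nor separate cultures, so every p-value here measures only the spread between these libraries, which may be technical. Libraries held 5654 to 10535 junction reads over all circRNAs of the table, 92237 in all. Of 19 epithelial marker genes, 7 hosted any circRNA in the table (CDH1, CDH17, EPCAM, GPA33, HNF4A, MUC13 and VIL1), with 0 to 19 reads per library. No fibroblast, immune or endothelial marker gene hosted one, and no epithelial marker hosted a short one.

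The short circRNAs came from 1330 host genes on 23 chromosomes, 842 of them from the plus strand. Their predicted lengths ran from 78 to 300 bases with a median of 250. On the genome, the stretch between the 2 ends of the junction had a median of 2594 bases, against 10491 for the circRNAs over 300 and up to 1500 bases and 26786 for those over 1500. In 116 short circRNAs (7.09%) the predicted sequence was as long as that stretch, so no intron was taken out of it. The share was 3.80% among those over 300 and up to 1500 bases and 10.2% among those over 1500. These 116 took 511 junction reads, and the other 1520 took 8970. A predicted length divisible by 3 was found for 571 (34.9%), against 36.7% of the longer circRNAs. At least 1 end was shared with another circRNA of the table for 934 (57.1%), against 71.9% of the longer ones.

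Most hosts gave a single short circRNA: 1086 had 1, 191 had 2, 48 had 3, 3 had 4 and 2 had 6. TBCD, which encodes a tubulin folding cofactor, had 6 short circRNAs with 21 of the host's 159 junction reads, and all 21 were in HCT116. PTPN12, a tyrosine phosphatase gene, also had 6, with 16 of 54 reads. USP34, a deubiquitinase gene, had 4 with 16 of 220 reads. In hosts with several circRNAs, 462 of 1226 short circRNAs that had reads (37.7%) were the host's highest or tied for it, against 32.7% of the longer ones. For 249 the short circRNA was the host's only one in the table.

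Together the short circRNAs took 9481 junction reads, 10.3% of all reads. The reads were thinly spread. The median short circRNA had 3 reads over the 12 libraries, 194 (11.9%) had none, 226 (13.8%) had at least 10, 66 had at least 20, 16 at least 50 and 6 at least 100. The 10 with most reads held 12.3% of all short reads and the 100 with most held 37.2%. Reads were seen in a single library for 570, in 2 to 5 libraries for 705, in 6 to 11 for 153, and in all 12 for 14. Longer circRNAs were similar in this respect, with none in 11.2% and at least 10 reads in 15.5%.

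Within the short class, mean reads were lowest for the shortest circles. Circles of up to 150 bases averaged 3.3 reads over the 12 libraries (n = 50), those over 150 and up to 200 bases 5.31 (n = 233), those over 200 and up to 250 bases 6.14 (n = 547) and those over 250 and up to 300 bases 5.86 (n = 806). At least 10 reads were reached by 4.0%, 9.44%, 14.3% and 15.4% of these 4 bins. Circles over 300 and up to 500 bases averaged 7.08 reads and 16.4% of them reached 10 reads. The bins are described without a test, since circRNAs of 1 host share their transcript. At the length limit, the 195 circRNAs within the last 10 bases below it averaged 6.89 reads with a median of 3, and the 152 within the 10 bases above it averaged 9.45 with a median of 4. The circRNA with most reads just inside was hsa_circ_0000586 of UBE3A, with 291 bases and 138 reads, and just outside it was hsa_circ_0001017 of XPO1, with 307 bases and 461 reads. The XPO1 circRNA alone held 461 of the 1436 reads just outside, and the higher mean there rests on it.

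**Figure D1:**
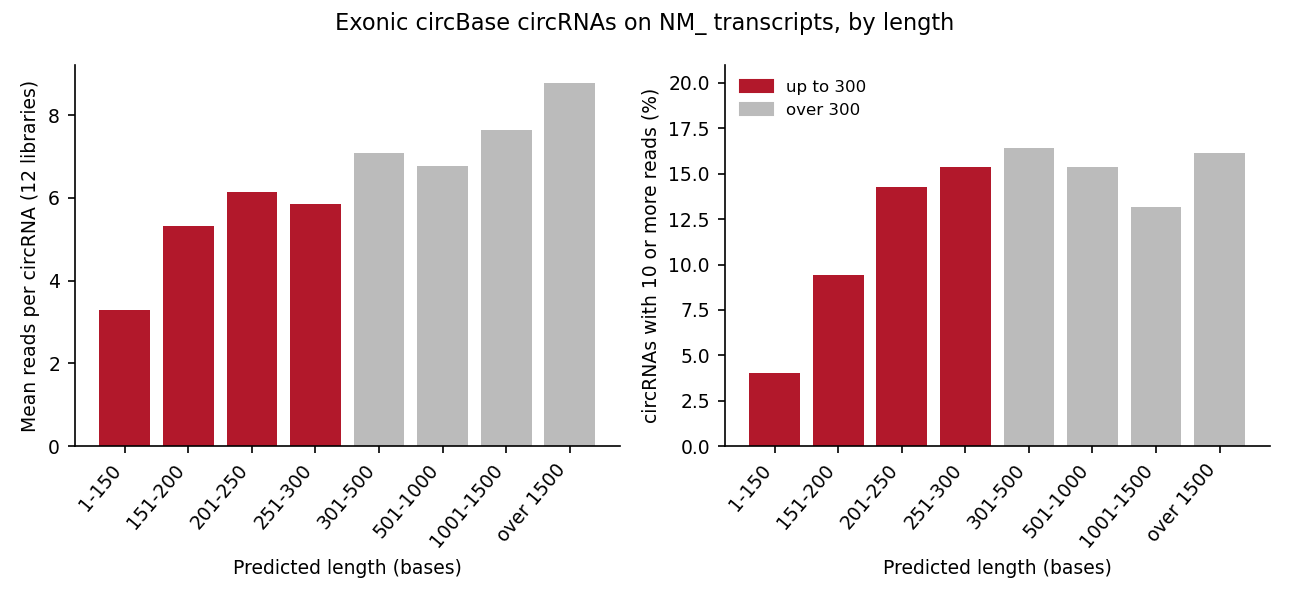
Mean junction reads per circRNA over the 12 libraries, and percent of circRNAs with at least 10 reads, by bin of predicted length in bases. The shortest bin, up to 150 bases, is lowest in both panels, with 3.3 reads and 4.0%.

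The share of each library's reads that fell on short circRNAs was between 8.83% and 11.6%. In resistant HCT116 the short circRNAs took 10.9%, 11.5% and 11.5% of junction reads in the 3 libraries, against 9.84%, 10.3% and 10.8% in sensitive HCT116. Every resistant library was above every sensitive one, but the lowest resistant library, with a 95% Wilson interval of 10.3% to 11.5%, nearly touched the highest sensitive one, with 10.3% to 11.4%. The group means were 11.3% ± 0.375 and 10.3% ± 0.501 (SD, n = 3 each), a difference of 0.980 percentage points. Without the 5 short circRNAs with most reads the difference was 0.857 and the groups overlapped. The circRNAs over 1500 bases also took a larger share in resistant HCT116, 7.12% ± 0.227 against 5.73% ± 0.769 in sensitive HCT116, while those over 300 and up to 1500 bases took 53.5% ± 0.802 in resistant and 56.0% ± 2.62 in sensitive HCT116.

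In Lovo the order was not the same. Resistant Lovo libraries had 9.10%, 8.89% and 9.67% of their reads on short circRNAs, against 8.83%, 9.63% and 11.6% in sensitive Lovo. The means were 9.22% ± 0.400 and 10.0% ± 1.44 (SD, n = 3 each), and the groups overlapped. The gap of -0.806 percentage points rested on sensitive replicate 3: without it the gap was -0.0101. Between the parental lines, sensitive HCT116 exceeded sensitive Lovo by 0.285 percentage points, with overlapping libraries. This gap was -0.315 without Lovo replicate 1 and 1.08, with no overlap, without Lovo replicate 3. In resistant cells every HCT116 library, at 10.9% to 11.5%, was above every Lovo library, at 8.89% to 9.67%. No test is given for these shares, and the intervals cover counting error only.

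**Figure D2:**
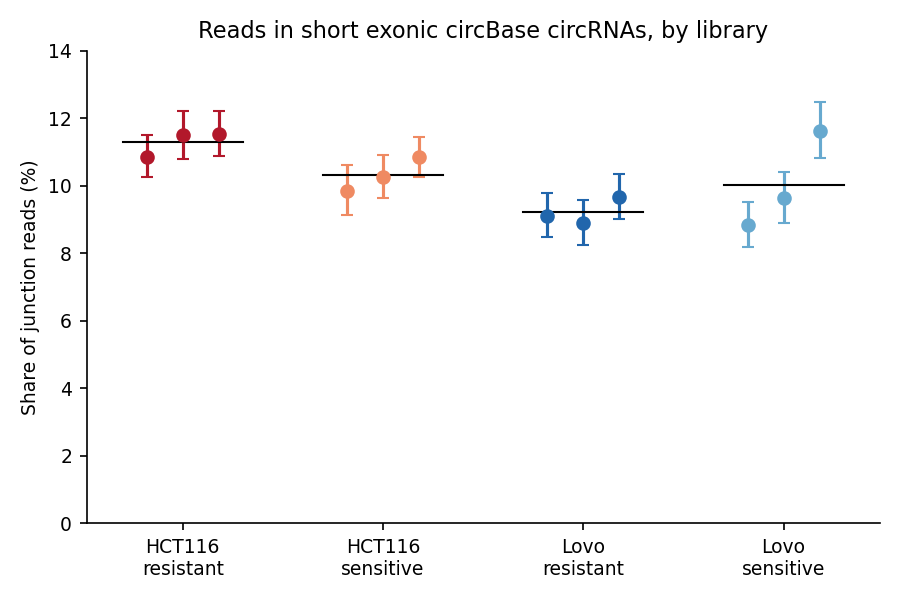
Percent of each library's junction reads that fell on short circRNAs, 1 point per library with its 95% Wilson interval, by group, with a horizontal line at each group mean. The 3 resistant HCT116 libraries lie between 10.9% and 11.5%, and sensitive Lovo has the widest spread, 8.83% to 11.6%.

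Reads in both lines were found for 635 short circRNAs, in HCT116 alone for 519 and in Lovo alone for 288. Depth was not equal: the groups held 26339 junction reads in resistant HCT116 against 25609 in sensitive HCT116, and 22000 in resistant and 18289 in sensitive Lovo. With every library thinned to 5654 reads, 321 ± 32.5 short circRNAs were detected per resistant HCT116 library and 300 ± 40.9 per sensitive HCT116 library. The counts were 267 ± 9.19 in resistant Lovo and 264 ± 48.2 in sensitive Lovo (SD, n = 3 each). Resistant and sensitive libraries of a line overlapped, as did the sensitive libraries of the lines, while each resistant HCT116 library, with 284 to 341, was above each resistant Lovo library, with 258 to 276. Of the 226 with at least 10 reads, 14 had no read in Lovo and 1 had none in HCT116. That one was hsa_circ_0003832 of NNT, a mitochondrial transhydrogenase gene (242 bases, hg19 chr5:43675613-43677908), with 2, 2 and 1 reads in resistant Lovo and 2, 6 and 1 in sensitive Lovo. A single one with at least 10 reads had none in either sensitive group: hsa_circ_0000853 of MALT1, a paracaspase gene, with 1, 3 and 6 reads in resistant HCT116. The opposite, none in either resistant group, held for hsa_circ_0002671 of SEC31A, a vesicle coat gene, with 9 of its 10 reads in 1 sensitive HCT116 library. These 3 were picked after their values were seen, and none had enough reads to be tested. Counts of circRNAs confined to a line or drug state were not made for the rest of the table. They are therefore not read as particular to short circRNAs.

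The short circRNAs with most reads came from genes of varied function. Highest was hsa_circ_0004771 of NRIP1, a corepressor of nuclear receptors, with 163 reads over the 12 libraries. Its 203 bases are drawn from a stretch of 29231 bases (hg19 chr21:16386665-16415895, minus strand), and it held 90.6% of all circRNA reads of NRIP1. Next was hsa_circ_0008922 of MATR3, which encodes a nuclear matrix protein that binds RNA, with 158 reads (161 bases, chr5:138614016-138614818, plus strand) and 88.8% of its host's circRNA reads. UBE3A, a ubiquitin ligase gene, followed with 138 reads of hsa_circ_0000586, and UBXN7, an adaptor of the p97 ATPase, with 120 of hsa_circ_0001380. RNF138, a ubiquitin ligase gene, had 115 reads of hsa_circ_0005729, and RAB3IP, an exchange factor for RAB GTPases, 111 of hsa_circ_0000419.

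None of these common circRNAs was called between resistant and sensitive cells of either line. UBXN7 had 10, 15 and 14 reads in resistant HCT116 and 7, 13 and 10 in sensitive HCT116, with 8, 10 and 9 in resistant Lovo and 4, 9 and 11 in sensitive Lovo. Its groups overlapped in every contrast. RAB3IP had 9, 10 and 8 reads in resistant HCT116 and 3, 12 and 4 in sensitive HCT116, against 12, 13 and 11 in resistant Lovo and 12, 6 and 11 in sensitive Lovo. Resistant HCT116 libraries were all below the resistant Lovo ones, and the other pairs of groups overlapped. For ASXL1, a partner of the BAP1 deubiquitinase on chromatin, hsa_circ_0001136 had 13, 8 and 9 reads in resistant HCT116 and 2, 11 and 14 in sensitive HCT116. In Lovo it had 13, 4 and 4 reads in resistant and 4, 11 and 2 in sensitive libraries, so replicates of 1 group differed by more than the groups did. RNF138 had 10, 6 and 20 reads in resistant HCT116 and 10, 13 and 18 in sensitive HCT116, with 12, 5 and 5 in resistant Lovo and 4, 8 and 4 in sensitive Lovo. Its sensitive HCT116 libraries lay above the sensitive Lovo ones after scaling.

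Of the other circRNAs among the 12 with most reads, hsa_circ_0007385 of MEMO1, a regulator of cell motility, had 94 reads and hsa_circ_0001118 of NDUFA10, a subunit of respiratory complex I, had 82. MEMO1 had 9, 6 and 10 reads in resistant HCT116 and 6, 12 and 21 in sensitive HCT116, and 3 to 7 in every Lovo library. NDUFA10 had 8, 5 and 10 reads in resistant HCT116 and 5, 6 and 13 in sensitive HCT116, with 7, 9 and 3 in resistant Lovo and 3, 7 and 6 in sensitive Lovo. The drug states of both lines overlapped for each of the pair. hsa_circ_0005939 of LMBR1, which encodes a membrane protein, had 67 reads, 3 to 9 in every library, and hsa_circ_0001009 of FANCL, the ubiquitin ligase of the Fanconi anaemia core complex, had 66. FANCL had 7, 13 and 8 reads in resistant HCT116 and 5, 10 and 7 in sensitive HCT116, against 5, 1 and 3 in resistant Lovo and 2, 5 and 0 in sensitive Lovo. Scaled for library size, its HCT116 libraries lay above the Lovo libraries in both drug states. Neither contrast was called (log2 differences 1.46 in resistant and 1.39 in sensitive cells). The FANCL circle passed the filter on low counts, described below, only through its HCT116 counts, which limits what this order of the lines can show.

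**Figure D3:**
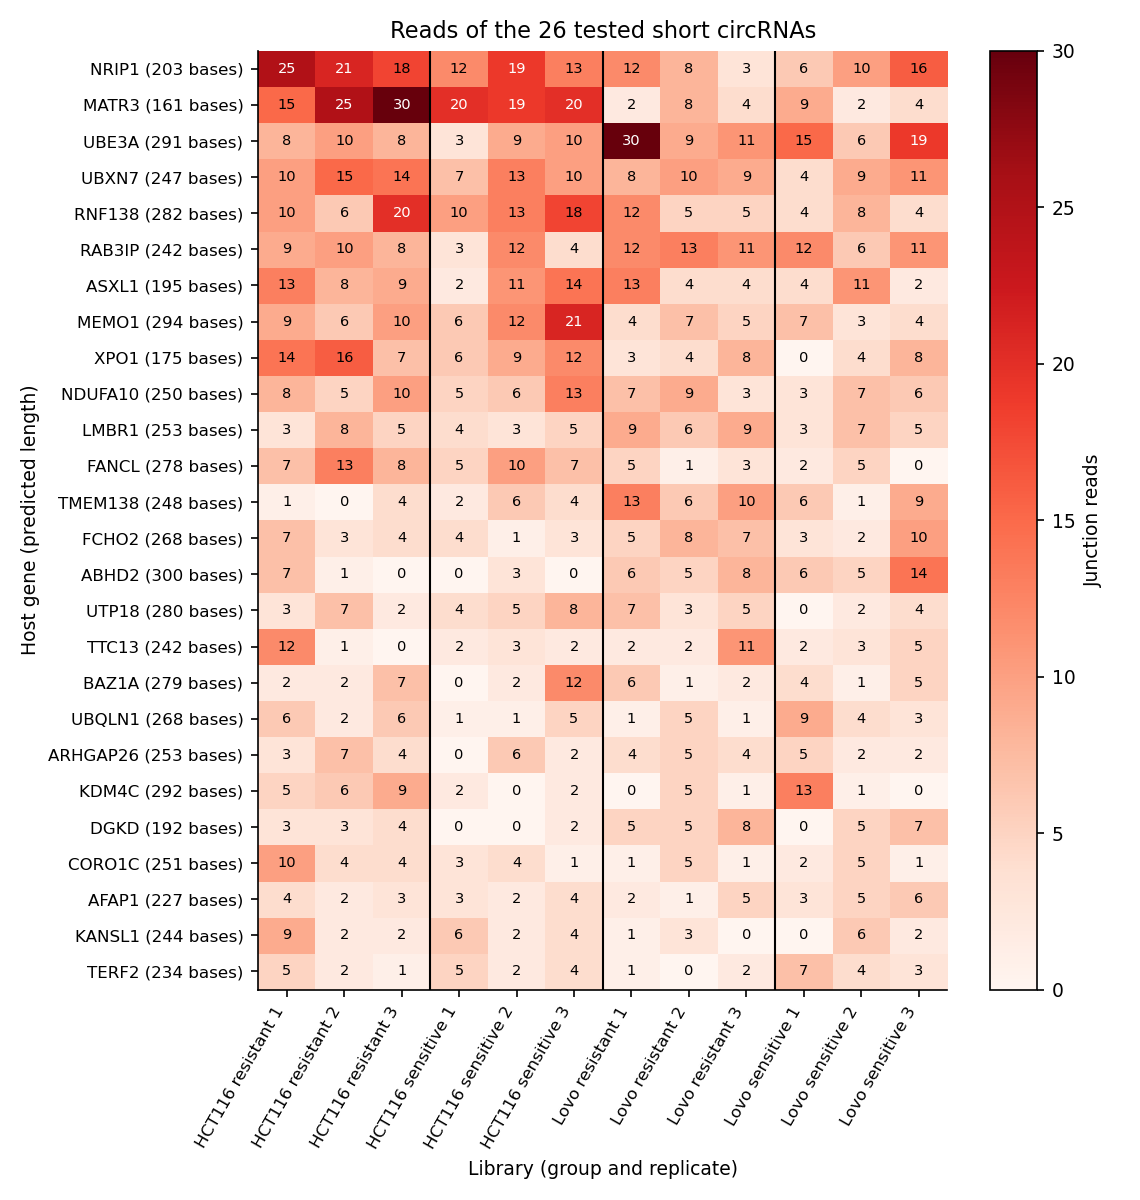
Junction reads (unscaled counts, printed and shaded) of the 26 tested short circRNAs, 1 row per circRNA from most to fewest reads, in each of the 12 libraries, 1 column per library by group. MATR3 has 15 to 30 reads in the HCT116 libraries and 2 to 9 in the Lovo libraries.

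The short circRNA of XPO1, hsa_circ_0001016, shares its downstream end with the longer hsa_circ_0001017 named above (chr2:61749746-61753656 and chr2:61749746-61761038). On the minus strand this end is the lower coordinate. XPO1 encodes the main nuclear export receptor. The short circle of 175 bases had 14, 16 and 7 reads in resistant HCT116 and 6, 9 and 12 in sensitive HCT116, with 3, 4 and 8 in resistant Lovo and 0, 4 and 8 in sensitive Lovo. The longer circle of 307 bases had 144 reads in resistant HCT116 against 127 in sensitive HCT116, and 115 in resistant and 75 in sensitive Lovo. As a share of both circles, the short one was 18.7%, 33.3% and 12.1% in resistant HCT116, against 17.6%, 19.1% and 16.4% in sensitive HCT116. In Lovo it was 5.77%, 9.52% and 22.2% in resistant libraries, against 0.0%, 9.76% and 28.6% in sensitive libraries. All 4 groups overlapped, so a change in the choice between the 2 circles was not detectable at this depth. For the library at 0, the upper Wilson bound was 17.6%.

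The shortest circRNAs with at least 10 reads were hsa_circ_0000940 of MARK4 with 103 bases, hsa_circ_0004896 of EXOSC1 with 136, and hsa_circ_0000727 of ANKRD11 with 156. MARK4 encodes a microtubule-affinity regulating kinase, and its circle lies on chr19:45766371-45766625. It had 7, 2 and 3 reads in resistant HCT116 and 3, 1 and 2 in sensitive HCT116, against 0, 0 and 0 in resistant Lovo and 1, 0 and 0 in sensitive Lovo. Almost all of its reads were thus in HCT116, with too few for a test. EXOSC1, a subunit gene of the RNA exosome, had 6, 0 and 0 reads in resistant HCT116 and 0, 1 and 2 in sensitive HCT116, and 0 to 3 in Lovo libraries. ANKRD11, a chromatin cofactor gene, had 0 to 4 reads in every library.

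A test was possible for few short circRNAs. After the filter on low counts, 300 circRNAs of the table were tested with edgeR's quasi-likelihood method, and 26 of them were short, 1.59% of all short circRNAs, against 1.67% of the whole table. These 26 held 1941 reads, 20.5% of the short reads. The tested short circRNA with fewest reads had 36, and the untested one with most had 40. Beside the hosts already named, the tested short circRNAs with fewer reads came from FCHO2, UTP18, TTC13, UBQLN1, ARHGAP26, CORO1C, AFAP1, KANSL1, ABHD2, TMEM138, KDM4C, DGKD, BAZ1A and TERF2. Some rested on few libraries: the TTC13 circle had 12, 1 and 0 reads in resistant HCT116 and 2, 3 and 2 in sensitive HCT116. A circRNA was called where the adjusted p (Benjamini-Hochberg over all 300) was under 0.05. Results for these 26 do not stand for the other short circRNAs, since a high count in 1 group could carry a circRNA through the filter. The FANCL circle passed it only through its HCT116 counts, and those of ABHD2, TMEM138 and DGKD only through their Lovo counts. This limits what their contrasts of the lines can show. The MATR3 circle met the filter by the counts of either line. The TERF2 circle passed only through sensitive libraries, and that of KDM4C would not have passed without its resistant HCT116 counts. This limits what their contrasts of the drug states can show.

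For resistance in HCT116, no short circRNA was called: 0 of 26 by edgeR, where 1.0% of all tested circRNAs were called (3 of 300). DESeq2 also called 0, and 1 of the 26 had an unadjusted edgeR p under 0.05, where 10.0% of all tested did. The median log2 difference of resistant over sensitive was 0.23 for the 26, within a range of -1.33 to 2.05, and -0.01 for all 300, with 17 of 26 above 0. Resistant and sensitive libraries did not overlap for 2 of the 26, where 12.7% of all tested circRNAs did not overlap. Both were higher in resistant cells, where 6.33% of all tested were higher without overlap and 6.33% were lower. These were circRNAs of KDM4C and DGKD.

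KDM4C encodes a histone lysine demethylase. Its circle hsa_circ_0001839 (292 bases, chr9:6880012-6893232, plus strand) had 5, 6 and 9 reads in resistant HCT116, against 2, 0 and 2 in sensitive HCT116. In Lovo it had 0, 5 and 1 reads in resistant libraries and 13, 1 and 0 in sensitive libraries, so 13 of the 14 sensitive reads came from 1 library. The log2 difference in HCT116 was 2.05 ± 1.04 (SE), which was not called (edgeR adjusted p = 0.479). The ratio of summed reads, scaled for library size, was 4.53 with an exact 95% interval of 1.52 to 18.2 for counting error alone. The KDM4C circle would not have passed the filter without its resistant HCT116 counts, which limits what this ratio and the lack of overlap can show.

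DGKD encodes diacylglycerol kinase delta, which turns diacylglycerol into phosphatidic acid. Its circle hsa_circ_0001112 (192 bases, chr2:234296903-234299129, plus strand) had 3, 3 and 4 reads in resistant HCT116 and 0, 0 and 2 in sensitive HCT116. Resistant Lovo had 5, 5 and 8 reads and sensitive Lovo 0, 5 and 7. In HCT116 the log2 difference was 2.02 ± 1.24 and was not called (edgeR adjusted p = 0.658). It was 4.64 without sensitive replicate 3, the only sensitive HCT116 library with reads, where the fitted value depends on the prior count, and 1.48 to 2.11 without any other library. The ratio of summed reads was 4.53, with an interval of 0.965 to 42.5 that reaches below 1. The third smallest p in HCT116 was for hsa_circ_0002058 of TMEM138, with a log2 difference of -1.33 ± 0.93 (edgeR adjusted p = 0.771). This difference was -2.81 without resistant replicate 3, where only 1 resistant HCT116 read was left.

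In Lovo, edgeR called 0 of the 26 short circRNAs between resistant and sensitive cells, and 0.0% of all tested circRNAs. None of the 26 had an unadjusted p under 0.05, where 5.67% of all tested did, and DESeq2 called 0. The median log2 difference was 0.05 for the 26, within a range of -2.28 to 1.05, and 0.03 for all 300, with 14 of 26 above 0. Libraries did not overlap for 1 of the 26, lower in resistant cells, where 12.3% of all tested circRNAs did not overlap, 7.67% higher and 4.67% lower. This was hsa_circ_0105829 of TERF2, a telomere-binding protein of the shelterin complex (234 bases, chr16:69404386-69406258, minus strand). It had 1, 0 and 2 reads in resistant Lovo, against 7, 4 and 3 in sensitive Lovo. HCT116 libraries had 5, 2 and 1 when resistant, against 5, 2 and 4 when sensitive. The log2 difference in Lovo was -2.28 ± 1.21 (edgeR adjusted p = 0.662). The ratio of summed reads was 0.185 with a counting interval of 0.0341 to 0.662. The TERF2 circle passed the filter on low counts only through sensitive libraries, which limits what this ratio and the lack of overlap can show.

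The next smallest p-values in Lovo belonged to NRIP1 and to UBQLN1, which encodes a shuttle factor that brings ubiquitinated proteins to the proteasome. The NRIP1 circle had 12, 8 and 3 reads in resistant Lovo and 6, 10 and 16 in sensitive Lovo (log2 difference -0.70 ± 0.50, edgeR adjusted p = 0.903). The UBQLN1 circle hsa_circ_0005142 had 1, 5 and 1 reads in resistant Lovo and 9, 4 and 3 in sensitive Lovo (-1.35 ± 0.97, edgeR adjusted p = 0.903). Without 1 library the values were -1.01 to -0.27 for NRIP1, with -0.27 without sensitive replicate 3, and -2.39 to -0.70 for UBQLN1, with -2.39 without resistant replicate 2. Both pairs of groups overlapped.

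The difference between the lines in the response, HCT116 minus Lovo, was called by edgeR for 0 of the 26, where 0.333% of all tested circRNAs were called (1 of 300). An unadjusted p under 0.05 was reached by 1 of the 26 and by 9.67% of all tested, and DESeq2 called 0. The median of this difference was 0.31 on the log2 scale for the 26 and -0.17 for all 300, with 18 of 26 above 0. KDM4C had the smallest p, with 3.40 ± 1.45 (edgeR adjusted p = 0.382). Without sensitive Lovo replicate 1, which held the 13 reads, the KDM4C value was 0.39. TMEM138 followed with -1.96 ± 1.17 and NRIP1 with 1.09 ± 0.66 (edgeR adjusted p = 0.624 each). Without resistant HCT116 replicate 3, which left 1 resistant HCT116 read, the TMEM138 value was -3.39. Without sensitive Lovo replicate 3 the NRIP1 value was 0.63.

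More short circRNAs were called between the 2 cell lines than between drug states. Between the sensitive parental lines, edgeR called 2 of the 26 short circRNAs, where 14.3% of all tested circRNAs were called (43 of 300). MATR3 was higher in HCT116, as were 8.67% of all tested, and ABHD2 was lower, as were 5.67%. Between the resistant lines, edgeR called 3 of the 26, where 16.7% of all tested were called (50 of 300). MATR3 and NRIP1 were higher in resistant HCT116 and TMEM138 was lower, where 8.33% of all tested were called in each direction. The median log2 difference of HCT116 over Lovo was 0.25 in resistant cells and -0.29 in sensitive cells for the 26, against -0.01 and -0.06 for all 300. Groups did not overlap for 6 of the 26 in the resistant pair, where the share of all tested was 28.3%, and for 4 in the sensitive pair, where it was 34.3%. In the resistant pair these were NRIP1, MATR3 and FANCL, higher in HCT116, and RAB3IP, TMEM138 and DGKD, lower in HCT116. In the sensitive pair they were MATR3, RNF138 and FANCL, higher in HCT116, and ABHD2, lower in HCT116.

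The MATR3 circle had 15, 25 and 30 reads in resistant HCT116, against 2, 8 and 4 in resistant Lovo. In sensitive cells it had 20, 19 and 20 reads in the HCT116 libraries, against 9, 2 and 4 in the Lovo libraries. Every HCT116 library was above every Lovo library in both drug states. Scaled for library size, in the unit CPM (counts per library, scaled to a common library size), it averaged 2752 ± 900 in resistant HCT116 and 610 ± 387 in resistant Lovo, and 2626 ± 578 in sensitive HCT116 and 747 ± 507 in sensitive Lovo (SD, n = 3 each). The log2 difference of HCT116 over Lovo was 2.14 ± 0.50 in resistant cells (edgeR adjusted p = 0.000369) and 1.76 ± 0.51 in sensitive cells (edgeR adjusted p = 0.00651). Leaving out 1 library gave 1.74 to 2.80 in resistant cells and 1.37 to 2.54 in sensitive cells. In resistant cells the call held without any 1 library, and in sensitive cells it was lost without Lovo replicate 2 (edgeR adjusted p = 0.0989) or replicate 3 (edgeR adjusted p = 0.0628). Over the 12 alternatives, edgeR or DESeq2 gave MATR3 adjusted p-values of 0.00171 to 0.405 in sensitive cells. Within a line the drug states differed little, by 0.08 in HCT116 and -0.30 in Lovo on the log2 scale, neither called. The other 6 MATR3 circRNAs of the table had 20 reads together. A bulk library cannot tell fewer cells with a circRNA from less of it per cell, here or for the circRNAs that follow.

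NRIP1 differed between the lines in resistant cells. Its circle had 25, 21 and 18 reads in resistant HCT116, against 12, 8 and 3 in resistant Lovo, with no overlap. In sensitive cells it had 12, 19 and 13 reads in the HCT116 libraries, against 6, 10 and 16 in the Lovo libraries, and the groups overlapped. The log2 difference was 1.32 ± 0.46 in resistant cells (edgeR adjusted p = 0.0316) and 0.23 ± 0.46 in sensitive cells, where it was not called. That these 2 values differ is the difference in response given above, 1.09 ± 0.66, which was not called. Leaving out 1 library gave 0.99 to 1.73 in resistant cells. The call there was lost without HCT116 replicate 1 (edgeR adjusted p = 0.0947) or 2 (0.0960), and without Lovo replicate 2 (0.0999) or 3 (0.240). Its adjusted p over the 12 alternatives, by edgeR or DESeq2, ran from 0.00497 to 0.678.

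TMEM138 encodes a membrane protein needed for primary cilia, and hsa_circ_0002058 (248 bases, chr11:61133517-61135470, plus strand) is the only circRNA of this host with reads. It had 1, 0 and 4 reads in resistant HCT116, against 13, 6 and 10 in resistant Lovo, and the groups did not overlap. Sensitive HCT116 had 2, 6 and 4 reads and sensitive Lovo 6, 1 and 9. In CPM this was 191 ± 237 in resistant HCT116 and 1266 ± 453 in resistant Lovo (SD, n = 3 each). The log2 difference was -2.60 ± 0.85 in resistant cells (edgeR adjusted p = 0.0186) and -0.64 ± 0.79 in sensitive cells, where it was not called. In resistant cells it was -4.07 without HCT116 replicate 3, which holds 4 of the 5 HCT116 reads, and -2.04 without HCT116 replicate 2. The value of -4.07 rests on the 1 HCT116 read left and is no measure of size. The resistant call was lost without HCT116 replicate 1 (edgeR adjusted p = 0.0947) or 2 (0.151), and without Lovo replicate 1 (0.101) or 3 (0.0743). Over the 12 alternatives the adjusted p, by edgeR or DESeq2, ran from 0.00870 to 0.550.

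ABHD2 encodes a lipid hydrolase. Its circle hsa_circ_0007099, at the length limit with 300 bases (chr15:89656956-89659752, plus strand), had 0, 3 and 0 reads in sensitive HCT116, against 6, 5 and 14 in sensitive Lovo. In resistant cells it had 7, 1 and 0 reads in the HCT116 libraries, against 6, 5 and 8 in the Lovo libraries. Sensitive HCT116 libraries were all below the sensitive Lovo ones, while the resistant groups overlapped. The log2 difference of HCT116 over Lovo was -3.15 ± 0.95 in sensitive cells (edgeR adjusted p = 0.00998). Leaving out 1 library gave -2.46 without HCT116 replicate 3 and -6.33 without HCT116 replicate 2. The second holds all 3 HCT116 reads, so the fitted value then depends on the prior count and is no measure of size. With every library, the ratio of summed reads was 0.103 with a counting interval of 0.0199 to 0.337. In resistant cells the log2 difference was -1.37 ± 0.84 (edgeR adjusted p = 0.322). The sensitive call was lost without HCT116 replicate 1 (edgeR adjusted p = 0.0806) or 3 (0.111), and without Lovo replicate 3 (0.146). The adjusted p from edgeR or DESeq2 ran from 0.00233 to 0.288 over the 11 alternatives in which it could be tested. The other 2 circRNAs of ABHD2 had 27 reads, all in Lovo: 18 in resistant and 9 in sensitive libraries.

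**Figure D4:**
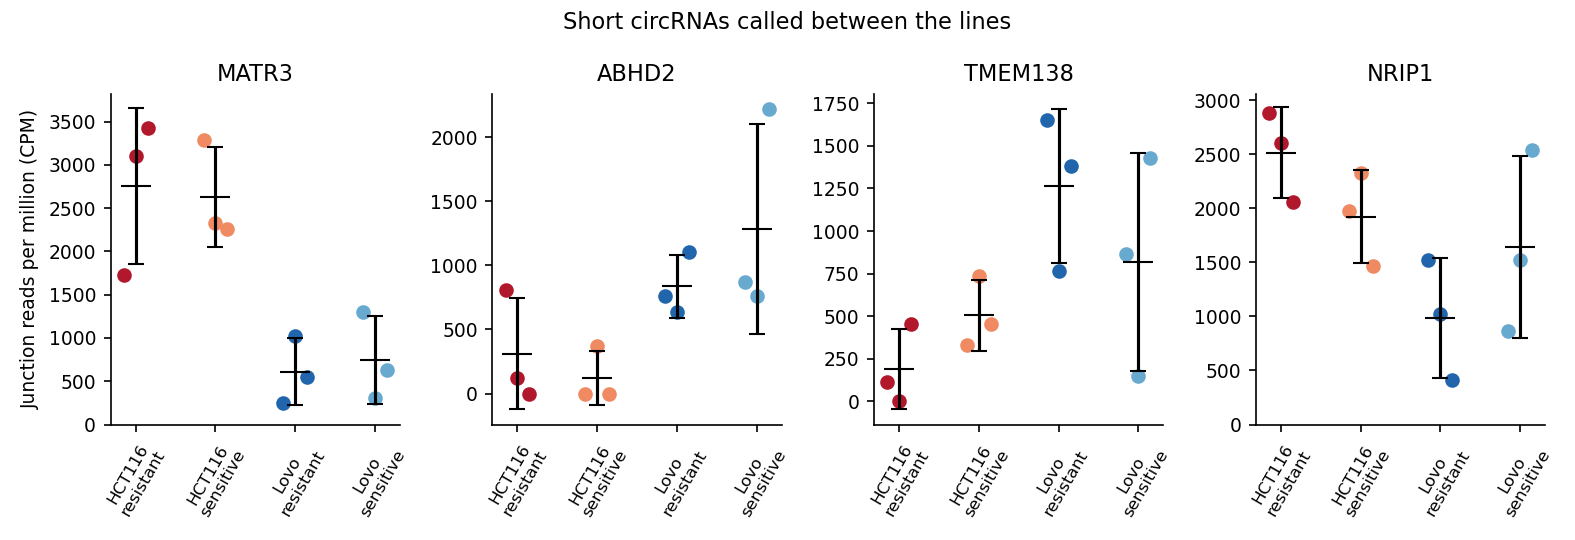
CPM of the 4 short circRNAs called in a contrast of the lines, 1 point per library, with the group mean and SD. MATR3 is higher in all 6 HCT116 libraries than in any Lovo library, and the other 3 overlap between the lines in 1 of the 2 drug states.

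UBE3A was not called in either contrast of the lines. It had 8, 10 and 8 reads in resistant HCT116 against 30, 9 and 11 in resistant Lovo, and 3, 9 and 10 in sensitive HCT116 against 15, 6 and 19 in sensitive Lovo. The log2 differences were -1.07 ± 0.48 in resistant cells and -1.10 ± 0.51 in sensitive cells (edgeR adjusted p = 0.113 and 0.125). DGKD had a log2 difference of -2.65 ± 1.21 between the sensitive lines (edgeR adjusted p = 0.122), where HCT116 held 2 reads, both in replicate 3, and the ratio of summed reads was 0.143 with a counting interval of 0.0155 to 0.642. Over the 26, the difference between the lines had the same sign in resistant and sensitive cells for 21 (80.8%), against 215 of all 300 (71.7%). Pearson's r between the 2 sets of differences was 0.51 across the 26 and 0.68 across all 300, as a description across circRNAs, which are not independent replicates. The resistant and sensitive contrasts share no library but are scaled and fitted together.

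**Figure D5:**
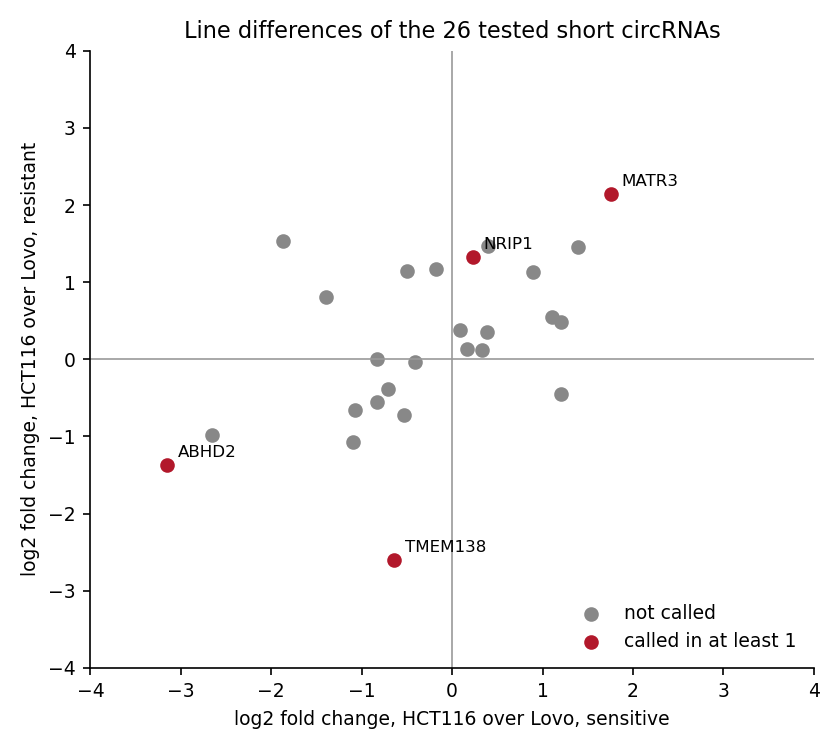
Log2 fold change of HCT116 over Lovo in resistant cells (vertical) against that in sensitive cells (horizontal), 1 point per tested short circRNA, with those called in either contrast in red. MATR3 is at 2.14 and 1.76, and KDM4C is among the 5 whose sign differs, at 1.53 and -1.87.

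By function of the host, 369 short circRNAs (22.6%) fell in at least 1 of 13 lists of genes. Reads below are summed over the 3 libraries of a group. Chromatin modifiers had 42 short circRNAs, 38 with reads, and 125 reads in resistant HCT116 against 123 in sensitive HCT116, with 74 in resistant and 78 in sensitive Lovo. The ASXL1, KDM4C and BAZ1A circles were its 3 tested members, and none was called in any contrast. BAZ1A, a subunit of chromatin remodelling complexes, gave the only tested circle whose predicted sequence was as long as the genomic stretch between its ends (hsa_circ_0006137, 279 bases). Splicing and RNA-binding hosts had 31 short circRNAs, 30 with reads: 97 reads in resistant HCT116 against 96 in sensitive HCT116, and 53 in resistant and 58 in sensitive Lovo. MATR3 was its only tested member and the only listed one called, in both contrasts of the lines.

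Ubiquitin ligases and deubiquitinases made the largest list, with 63 short circRNAs, 53 with reads. They took 133 reads in resistant HCT116 against 149 in sensitive HCT116, and 137 in resistant and 106 in sensitive Lovo. UBE3A and RNF138 were tested and not called. Vesicle trafficking and Golgi hosts had 57, 55 of them with reads, and 115 reads in resistant HCT116 against 104 in sensitive HCT116, with 85 in resistant and 79 in sensitive Lovo. RAB3IP was the tested member.

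Nuclear transport and nuclear pore hosts had 26 short circRNAs, with 73 reads in resistant HCT116 against 49 in sensitive HCT116, and 42 in resistant and 26 in sensitive Lovo. As a share of all short reads this was 2.30% to 2.76% in resistant HCT116 libraries and 1.21% to 2.19% in sensitive ones, which do not overlap. In Lovo the ranges were 1.81% to 2.25% in resistant and 1.18% to 1.83% in sensitive libraries, which do. The XPO1 circle was the only tested member, with log2 differences of resistant over sensitive of 0.33 in HCT116 and 0.10 in Lovo, not called. Hosts for adhesion, junctions and the cytoskeleton had 35, with 73 reads in resistant HCT116 against 44 in sensitive HCT116, and 25 in resistant and 39 in sensitive Lovo. As a share of short reads the adhesion hosts took 1.98% to 3.06% in resistant HCT116 libraries and 1.30% to 2.21% in sensitive ones, which overlap, and 0.974% to 1.45% in resistant Lovo libraries and 1.85% to 2.29% in sensitive ones, which do not. In no other list were the drug states of a line apart. Among all tested circRNAs, taken singly, the drug states did not overlap for 12.7% in HCT116 and 12.3% in Lovo. A list whose drug states are apart in 1 line is therefore not read as standing out. The tested member was hsa_circ_0000437 of CORO1C, an actin-binding coronin, with 10, 4 and 4 reads in resistant HCT116 and 3, 4 and 1 in sensitive HCT116. Its groups overlapped.

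DNA repair hosts had 22 short circRNAs, with 51 reads in resistant HCT116 against 61 in sensitive HCT116 and 26 in resistant and 32 in sensitive Lovo, and FANCL was the tested one. Mitochondrial hosts had 23, with 39 reads in resistant HCT116 against 31 in sensitive HCT116 and 48 in resistant and 38 in sensitive Lovo, and NDUFA10 was the tested one. Neither was called in any contrast.

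The remaining lists held no tested short circRNA. Fluoropyrimidine, folate and nucleotide metabolism, the genes that act on 5-Fu and its targets or carry drugs across membranes, had 11 with 16 reads in resistant HCT116 against 24 in sensitive HCT116, and 11 each in resistant and sensitive Lovo. The highest was hsa_circ_0038111 of ABCC1, a multidrug efflux pump, with 15 reads. It had 0, 0 and 7 reads in resistant HCT116 and 0, 0 and 0 in sensitive HCT116, with 0, 0 and 1 in resistant Lovo and 4, 0 and 3 in sensitive Lovo. Receptor, RAS and PI3K signalling hosts had 28, with 34 reads in resistant HCT116 against 19 in sensitive HCT116 and 27 in resistant and 23 in sensitive Lovo. Their highest was hsa_circ_0003036 of PAK2, a kinase downstream of RAC and CDC42, with 21 reads. WNT, TGF-beta and BMP hosts had 11, with 8 reads in resistant HCT116 against 24 in sensitive HCT116 and 7 in resistant and 8 in sensitive Lovo, led by hsa_circ_0004955 of ACVR1, a BMP receptor gene, with 12.

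Cell cycle hosts had 20, with 27 reads in resistant HCT116 against 44 in sensitive HCT116 and 29 in resistant and 17 in sensitive Lovo. Their highest was hsa_circ_0001074 of ORC4, a subunit of the origin recognition complex, with 21 reads. The list of p53 and apoptosis genes hosted no short circRNA. These sums are given without a test, since few circRNAs carry each of them.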

How the data were processed

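Ribosomal RNA was removed from total RNA and directional libraries were made, per the labels' protocols. Values in the deposited table are unnormalized counts of reads across each back-splice junction, 1 column per library, and other columns give the predicted length in bases, class and circBase identifier, per the file headers. The submitters' processing notes name STAR 2.5.1b, cutadapt 1.9.3, edgeR 3.16.5 and build hg19 without roles. The circRNA caller is not given in the sources used here. All positions are 1-based on hg19. Host names matched a current or older RefSeq symbol for 1330 of 1330 hosts. The circRNA sequences were not analysed here.

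Counts over 12 libraries were fitted in 1 model with 4 group means (edgeR 4.0.16, R 4.3.3, scaling by TMM; filterByExpr, count of at least 5 and total of at least 15; 8 residual degrees of freedom). P-values were adjusted over all 300 circRNAs tested. DESeq2 1.42.0, other scalings and filters, fits to 2 groups, a replicate block and leaving out each library were alternatives. CPM are read counts per library size after TMM scaling, in the usual unit. The labels do not say that replicate numbers pair libraries, and the main fit used no pairing. Circles of 1 host can share exons, and 4 short circRNAs had another junction within 5 bases, which a caller may split.

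Members, gene lists and tests were chosen with earlier results of these data known. Named circRNAs were the 12 with most reads, those called, the 3 smallest p-values of each contrast, the 3 shortest with at least 10 reads, the highest of each list, the 3 hosts with most members (ties by reads), and 1 at the length limit. Other names, such as NNT, MALT1, SEC31A, TTC13 and BAZ1A, were chosen after values were seen.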

Additional observations from a re-analysis of the deposited data

How the results depend on the processing

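Between resistant and sensitive cells of either line, and for the difference of the 2 responses, the count of short circRNAs called was 0 under every alternative tried: 12 in each line and 17 for the difference. Between the sensitive lines the count of 2 became 0 with no filter beyond 1 read and 1 with a minimum count of 10, and between the resistant lines the count of 3 became 0 with no filter. With no filter beyond 1 read, 1442 short circRNAs were tested in place of 26. Leaving out 1 library at a time gave 0 to 2 calls between the sensitive lines, with 0 without Lovo replicate 3 and 1 without Lovo replicate 2 or HCT116 replicate 1 or 3, and 1 to 4 between the resistant lines, with 1 without HCT116 replicate 1 or 2 or Lovo replicate 3. MATR3 between the resistant lines was lost only with no filter (edgeR adjusted p = 0.0548, range 3.96e-05 to 0.0548). With a minimum count of 10, TMEM138 was lost (edgeR adjusted p = 0.0637). No direction was reversed for the named circRNAs and contrasts recomputed here. The difference in the share of reads on short circRNAs was 0.728 to 1.38 percentage points in HCT116 over the alternatives, -1.41 to -0.0101 in Lovo, and -0.315 to 1.08 between the sensitive lines. Same-numbered libraries of different groups had correlations of -0.136 to 0.0625 (median -0.00658), and other pairs -0.0673 to 0.0805 (median 0.00764). At such low counts these values cannot show whether the numbers pair libraries. A fit with the replicate block gave the same counts of calls, 0, 0, 0, 2 and 3. At these depths most short circRNAs had too few reads for a test.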
